A study of Mus musculus with 90 samples.

Results

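The genes of glycogen storage and breakdown were followed in mouse liver across feeding, genotype, time of day and corticosterone. They were picked by symbol, after Ensembl identifiers had been matched to symbols, and all 9 were present among the 27654 gene identifiers of the count tables. Transcripts of whole livers were sequenced in 90 libraries, each from a single mouse, in 3 experiments. A pair of these used WT mice at ZT12 (ZT counts hours from lights on), with 3 livers on caloric restriction against 3 on control diet, and 3 livers after corticosterone against 3 after vehicle. The other was a time series at 6 time points 4 h apart, with 18 WT and 18 GRLKO livers on caloric restriction (3 in each group) and 22 WT and 20 GRLKO livers on control diet (3 or 4 in each group). Its purpose was to compare livers with and without the glucocorticoid receptor (GR) in hepatocytes on each feeding regime.

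All mice were males of the C57BL/6J strain and were 12 weeks old when their protocol began. WT mice of the time series carried the floxed receptor gene (GRfl/fl), and GRLKO mice carried it together with Alb-Cre, in which the albumin promoter drives Cre recombinase in hepatocytes, so that other liver cells kept the receptor. The mice of the diet and corticosterone experiments were labelled WT. Caloric restriction ran for 8 weeks and ended at 40% fewer calories, with food given at ZT12. The control libraries of all 3 experiments are labelled as night-restricted feeding, although those of the diet experiment are titled AL, and this feeding by the study's methods applied in the last week. Corticosterone was injected into the peritoneum at 5 mg/kg on each of 7 days, at ZT11 by the methods and at ZT12 by the study's main text, and its controls received vehicle. The libraries held 36442195 to 39492146 counts in the diet experiment and 13739631 to 16077943 in the corticosterone experiment. In the time series they held 14235473 to 20788575 counts with restricted feeding and 10057544 to 17089004 in the control groups. Levels are given in CPM, counts scaled to a common library size by edgeR's TMM method within each deposited table, and they are not compared between genes, because gene length is not taken into account.

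Hepatocytes store glucose after a meal as glycogen, a branched polymer built from UDP-glucose, and break it down between meals to release glucose into the blood. Storage and breakdown are set against each other by phosphorylation, which activates glycogen phosphorylase and inactivates glycogen synthase, and by protein phosphatase 1, which reverses both and is held on the glycogen particle by targeting subunits. Glucocorticoids take their name from their effect on glucose and are known to raise liver glycogen.

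The members fall into 4 roles and are placed on mouse build GRCm38 by the GENCODE annotation, since the labels give that build as mm10 but the annotation release behind the counts is not given in the sources used here. Ugp2 (ENSMUSG00000001891, chr11:21321138-21371201 on the minus strand) encodes the enzyme that makes UDP-glucose. Gyg (ENSMUSG00000019528, chr3:20122084-20155317 on the minus strand) encodes glycogenin, which primes a new chain. Gys2 (ENSMUSG00000030244, chr6:142422613-142473109 on the minus strand) encodes the liver glycogen synthase, which lengthens chains, and Gbe1 (ENSMUSG00000022707, chr16:70313949-70569716 on the plus strand) the branching enzyme. Ppp1r3b (ENSMUSG00000046794, chr8:35375739-35388139 on the plus strand), Ppp1r3c (ENSMUSG00000067279, chr19:36731731-36736653 on the minus strand) and Ppp1r3g (ENSMUSG00000050423, chr13:35958839-35970388 on the plus strand) encode subunits that target protein phosphatase 1 to glycogen. Breakdown is represented by Pygl (ENSMUSG00000021069, chr12:70190811-70231488 on the minus strand), the liver glycogen phosphorylase, and Phka2 (ENSMUSG00000031295, chrX:160502166-160598878 on the plus strand), the liver regulatory subunit of the phosphorylase kinase. All 9 are annotated as protein coding. On the opposite strand, exons of Gm15243 share 115 of the 6068 exon bases of Phka2, and exons of Gm12043 share 78 of the 3069 of Ugp2, so that unstranded reads from those stretches could belong to either gene. The 4 other annotated genes that overlap a member (within Pygl, Ppp1r3b, Ppp1r3g and Ugp2) share 0 exon bases with it.

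Nr3c1 (ENSMUSG00000024431), the receptor gene itself, separated the genotypes in the time series. On control diet its lowest, median and highest levels were 72.3, 87.4 and 119 CPM in WT livers and 16.2, 21.6 and 29.1 CPM in GRLKO livers. On caloric restriction the same values were 70.5, 94.0 and 113 CPM in WT and 21.6, 25.0 and 32.2 CPM in GRLKO livers. Every GRLKO liver lay below every WT liver of its diet. In the diet experiment Nr3c1 held 88.4, 90.1 and 95.9 CPM on control diet and 84.5, 88.5 and 86.5 CPM on caloric restriction. With vehicle it held 74.2, 77.3 and 69.1 CPM, and after corticosterone 61.8, 83.4 and 66.3 CPM. The liver label was checked against 7 hepatocyte markers, whose summed level ran from 68477 to 172973 CPM over the 90 libraries with Alb the most abundant and none at 0 in any group. Markers of pancreas or skeletal muscle stood furthest apart in 3 libraries. The pancreas list (7 exocrine genes) summed to 626 CPM in WT replicate 3 on caloric restriction at ZT12, beside 0.122 and 0.681 CPM in the other WT livers of that group. It summed to 311 CPM in WT replicate 2 on control diet at ZT16, beside 0.519, 1.10 and 0.412 CPM. Among GRLKO livers on caloric restriction at ZT12, replicate 1 held 233 CPM of 6 skeletal muscle genes and the others 0.199 and 0 CPM. The same muscle genes held less in vehicle replicate 2 (17.0 CPM), corticosterone replicate 1 (8.61 CPM) and WT replicate 1 on control diet at ZT0 (16.7 CPM), which were left out singly but not as a set. Leaving out the first 3 libraries was run between genotypes, from ZT12 to ZT16 and for the interaction of genotype and diet. It was also run for daily rhythms and rhythm differences in groups that hold these libraries. Calls that change are given both ways, except for rhythms, whose counts without these libraries are not given. The setting has no fixed limit and was chosen after seeing the data.

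Over the day the members were high at different hours. In each of the 4 groups of genotype and diet, the genes of UDP-glucose and chain synthesis, Ugp2 and Gys2, had their highest mean at ZT8 or ZT12 and Phka2 at ZT8, whereas Ppp1r3b and Ppp1r3c had theirs in the dark phase or at ZT0. A daily rhythm was tested in each of 4 groups with JTK_CYCLE, a rank test for a 24 h cycle, with a Benjamini-Hochberg adjusted p under 0.05 and an amplitude above 0.1 on a log2-like scale. On caloric restriction 7 of 9 members passed in WT, where 20.8% of 18651 genes did, and 6 of 9 in GRLKO, where 19.0% of 18932 did. On control diet 6 of 9 passed in WT beside 24.1% of 18874 genes, and 5 of 9 in GRLKO beside 20.9% of 18705. Each of these counts lies above the share of all genes. That share is taken over every gene with at least 1 count in the group, low levels included. The part of expression level in the excess was not tested. Gys2, Ppp1r3b, Phka2 and Ugp2 passed in all 4 groups. Ppp1r3c passed in all but GRLKO livers on caloric restriction (adjusted p 0.0750), and Pygl and Gbe1 in both genotypes on caloric restriction. Gyg passed in WT livers on control diet, and Ppp1r3g in no group. Without replicate 1, 2 or 3 of every time point, fewer members passed on caloric restriction, down to 2 in WT without replicate 3 (beside 2.15% of all genes) and 1 in GRLKO without replicate 1 (2.13%). The same step left 3 in WT without replicate 2 (2.17%), 2 in GRLKO without replicate 2 (1.62%) and 2 without replicate 3 (2.02%), and in GRLKO on control diet 3 without replicate 1 (7.12%) and 2 without replicate 2 (6.35%), with the share of all genes in brackets. Of 29 other glycogen genes, 8 passed in WT and 11 in GRLKO on caloric restriction, and 13 in each genotype on control diet.

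The synthase gene Gys2 had its highest and lowest group means in WT livers at 381 ± 114 CPM at ZT12 and 93.0 ± 2.95 CPM at ZT0 on caloric restriction (SD, n = 3). In GRLKO livers on that diet the extremes were 531 ± 86.8 CPM at ZT12 and 88.8 ± 1.69 CPM at ZT0, a ratio of 5.99. Control diet gave 415 ± 35.1 CPM at ZT12 (n = 4) and 92.4 ± 16.9 CPM at ZT0 (n = 3) in WT. Every Gys2 value at ZT12 lay above every value at ZT0 in all 4 groups. Ugp2, which supplies UDP-glucose, ran in WT livers from 573 ± 178 CPM at ZT8 to 257 ± 24.3 CPM at ZT20 on caloric restriction and from 480.4 ± 48.9 CPM at ZT12 to 234 ± 22.6 CPM at ZT20 on control diet. GRLKO livers ran from 728 ± 51.6 CPM at ZT12 to 266 ± 26.3 CPM at ZT0 and from 439 ± 18.3 CPM at ZT12 to 211 ± 47.9 CPM at ZT20 on the same diets. The branching enzyme gene Gbe1 moved less, with a ratio of highest to lowest group mean of 1.60 in WT on caloric restriction and 1.2 on control diet. Its WT means on caloric restriction ran from 186 ± 33.7 CPM at ZT8 to 117 ± 11.7 CPM at ZT0. Glycogenin (Gyg) stayed under 10 CPM in every library, and its WT means on control diet ran from 5.595 ± 0.311 CPM at ZT8 to 2.96 ± 0.935 CPM at ZT20.

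Among the phosphatase subunits, Ppp1r3b spanned the widest ratio of the members with no library at 0, from 468 ± 81.5 CPM at ZT16 to 48.9 ± 14.2 CPM at ZT8 in GRLKO livers on caloric restriction, a ratio of 9.57. WT livers ran from 419 ± 35.4 CPM at ZT16 to 55.9 ± 7.75 CPM at ZT4 on that diet, and from 199.96 ± 32.4 CPM at ZT20 to 28.1 ± 6.28 CPM at ZT8 on control diet. Its trough thus fell in the light phase in each of these groups. Ppp1r3c means ran from 232 ± 46.3 CPM at ZT20 to 29.0 ± 9.05 CPM at ZT8 in WT on caloric restriction and from 190.3 ± 38.4 CPM at ZT20 to 28.4 ± 4.46 CPM at ZT12 on control diet. In GRLKO livers the same gene ran from 301 ± 42.3 CPM at ZT16 to 44.3 ± 10.5 CPM at ZT12 and from 160.2 ± 44.9 CPM at ZT0 to 34.2 ± 12.3 CPM at ZT12. Its lowest group was at ZT8 or ZT12 and its highest between ZT16 and ZT0 in each case. Ppp1r3g was near 0 in most libraries of the series, with median levels of 0.387 and 0.485 CPM in WT and GRLKO on caloric restriction and 0.105 and 0.366 CPM on control diet. It was at 0 in 4 and 8 of 18 libraries and in 7 of 22 and 7 of 20, in the same order. Single livers stood far higher, up to 30.6 CPM in a WT liver on caloric restriction at ZT12.

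Of the breakdown genes, Phka2 had the larger swing. It ran in WT from 54.4 ± 2.85 CPM at ZT8 to 15.4 ± 0.586 CPM at ZT16 on caloric restriction, a ratio of 3.53, and from 33.1 ± 1.93 CPM at ZT8 to 17.5 ± 2.29 CPM at ZT16 on control diet, a ratio of 1.90. GRLKO livers ran from 58.9 ± 1.81 CPM at ZT8 to 18.3 ± 1.58 CPM at ZT16 and from 34.7 ± 1.87 CPM at ZT8 to 19.5 ± 1.52 CPM at ZT16. The trough was at ZT16 in each of the 4 groups. Pygl, whose product releases glucose from glycogen, varied by ratios of 1.53 and 1.44 in WT and GRLKO on caloric restriction and 1.27 and 1.31 on control diet. Its WT means on caloric restriction ran from 504 ± 38.9 CPM at ZT20 to 331 ± 54.8 CPM at ZT8, and those of GRLKO from 338 ± 71.5 CPM at ZT20 to 235 ± 5.48 CPM at ZT12.

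**Figure D1:**
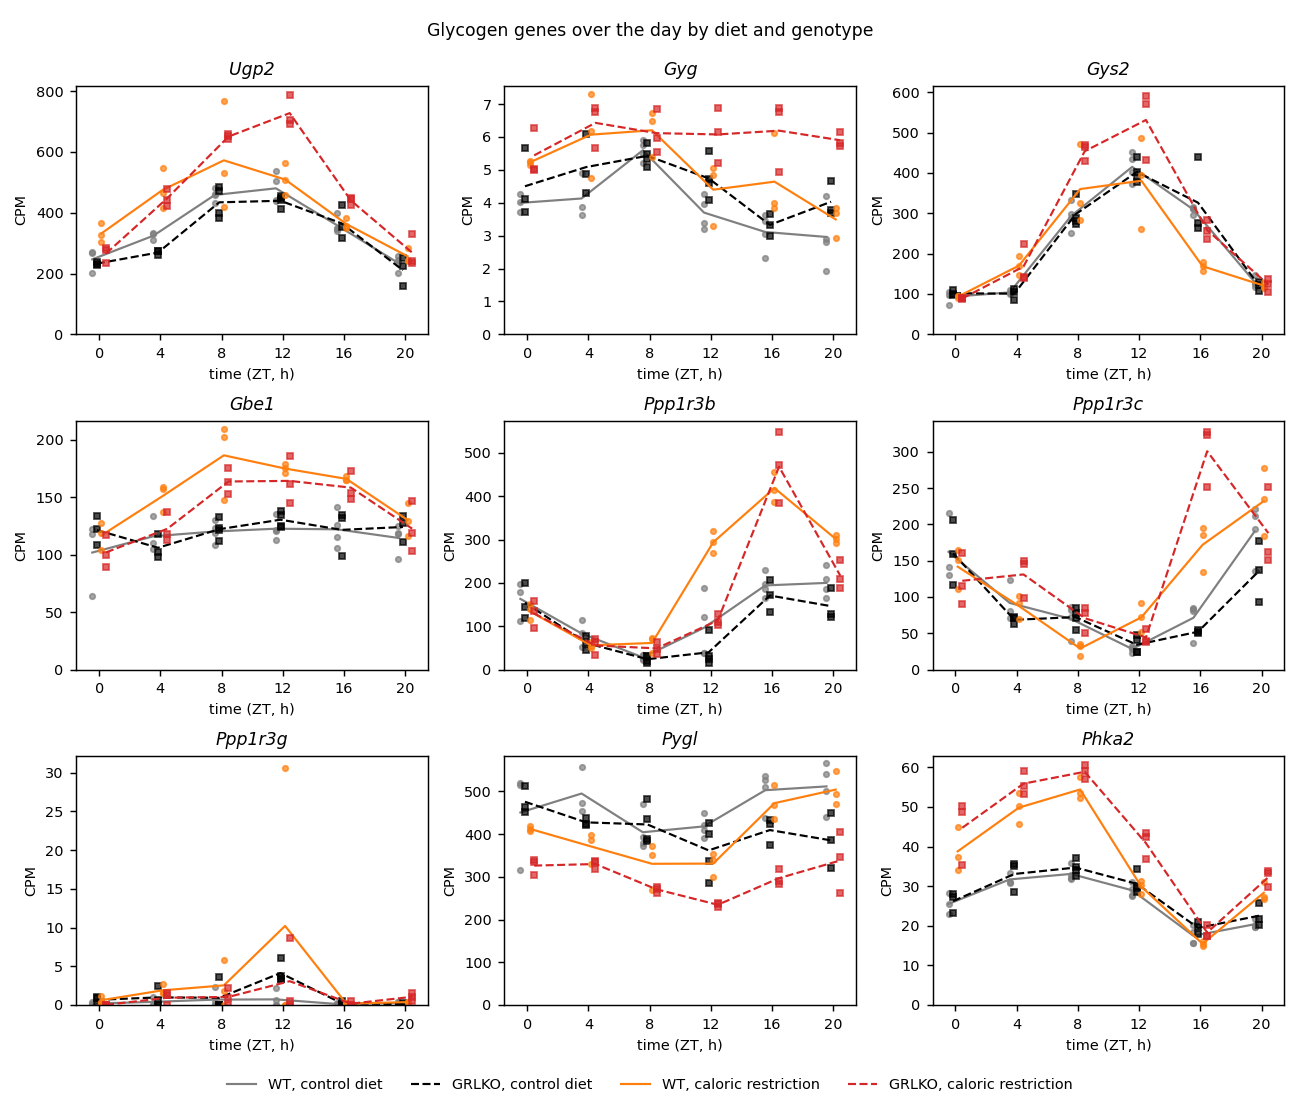
CPM of each member (y axis) by time of day in ZT hours (x axis) for WT and GRLKO livers on each diet, with a point for each liver and lines through the group means. Gys2 and Ugp2 are high around ZT8 to ZT12, and Ppp1r3b and Ppp1r3c from ZT16 to ZT0.

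Whether daily courses differed was tested with limma as an interaction of the groups with the sine and cosine of time. Between the diets in WT livers 5 of 9 members passed, where 26.6% of 12971 genes did. Fitted peaks of all 5 came earlier on caloric restriction. The paper reports a phase advance on this diet across its rhythmic transcripts, with core clock genes among them. How many of all genes peaked earlier was not counted here, so the direction is not shown to be particular to the members. Gys2 peaked at 12.3 h on control diet and 10.3 h on caloric restriction (adjusted p 0.000146), and Ugp2 at 10.4 h on control diet and 8.49 h on caloric restriction (adjusted p 0.0217). The phosphatase subunit Ppp1r3b peaked at 19.7 h on control diet and 16.8 h on caloric restriction (adjusted p 0.00233), and Ppp1r3c at 23.0 h on control diet and 20 h on caloric restriction (adjusted p 0.00343). Phka2, of the phosphorylase kinase, peaked at 6.29 h on control diet and 4.86 h on caloric restriction (adjusted p 0.00261), and its fitted amplitude was 0.40 and 0.72 on the log2-like scale. Without replicate 1 of every time point, 2 members and 15.0% of all genes passed. Each diet of the series has its own count table and prefix of library identifiers, and the part of any batch in these differences was not tested. Of 26 other glycogen genes tested, 11 passed. Between genotypes on caloric restriction 0 of 9 members passed with limma, where 0.659% of 13041 genes did, and 4 had an unadjusted p under 0.05, beside 12.1% of all genes. Ugp2 came nearest, with fitted peaks at 8.52 h in WT and 10.1 h in GRLKO (adjusted p 0.0579). On control diet 0 of 9 passed, where 0.366% of 12834 genes did, and 0 had an unadjusted p under 0.05, beside 9.83% of all genes. These rhythm differences were not tested with DESeq2.

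At ZT12 on caloric restriction, Ppp1r3b and Pygl fell and Ugp2 and Phka2 rose in GRLKO livers against WT. This is 4 of the 8 members tested, where 15.3% of 11759 genes were called by edgeR at an adjusted p under 0.05, and Ppp1r3g had too few counts to be tested. The median size of change (absolute log2 fold change) was 0.49 over the 8 members and 0.25 over all genes tested. Ppp1r3b, a targeting subunit abundant in liver, held 293, 269 and 319 CPM in the 3 WT livers and 109.6, 102 and 129 CPM in the 3 GRLKO livers. The highest GRLKO liver was below the lowest WT liver by more than either group's whole range. The log2 fold change was -1.38 ± 0.12 (SE) with an adjusted p of 0.000777, and without the 2 libraries that held other-tissue markers it was -1.30 with an adjusted p of 0.0211 (range 1.34e-27 to 0.0211 over 12 alternatives). Pygl, the phosphorylase, held 355, 299.6 and 339 CPM in WT and 239, 228 and 236 CPM in GRLKO livers, again with no overlap. Its log2 fold change was -0.51 ± 0.09 (adjusted p 0.0118). The call ended with total counts in place of TMM scaling (log2 -0.34, adjusted p 0.0537) and without the 2 libraries (log2 -0.51, adjusted p 0.116), with a range of 1.42e-06 to 0.116 over 12 alternatives. Scaling by total counts shifted the median of all genes by 0.16 on the log2 scale in this comparison.

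Ugp2 held 458, 562 and 508 CPM in the WT and 787, 704 and 692 CPM in the GRLKO livers on caloric restriction at ZT12. All GRLKO livers were above all WT livers. The log2 fold change was 0.51 ± 0.10 (adjusted p 0.0184), and it lost its call without WT replicate 3 (0.0694), GRLKO replicate 1 (0.0632) or GRLKO replicate 3 (0.0529), and with replicate number as a block (0.0766), adjusted p in brackets. Without both libraries that held other-tissue markers the adjusted p was 0.164 (range 1.96e-05 to 0.164 over 12 alternatives). Of the 4 members Ppp1r3b alone was then called, beside 538 of 11804 genes, against 1795 of 11759 with all libraries. Phka2, the regulatory subunit of the kinase that activates phosphorylase, held 28.1, 31.2 and 30.2 CPM in WT and 43.3, 42.4 and 36.8 CPM in GRLKO livers, with every GRLKO liver higher. Its log2 fold change was 0.45 ± 0.09 (adjusted p 0.0201), with the call lost without WT replicate 1 (0.0560), WT replicate 3 (0.0663), GRLKO replicate 1 (0.0630) or GRLKO replicate 2 (0.0612), with the replicate block (0.0709) and without both marked libraries (0.151). The adjusted p of Phka2 ran from 0.00330 to 0.151 over 12 alternatives. Ppp1r3c, another targeting subunit, held 71.8, 52.0 and 92.0 CPM in WT and 37.6, 56.4 and 39.05 CPM in GRLKO livers, where the groups overlapped, with a log2 difference of -0.71 (adjusted p 0.0844). DESeq2 called it as well (adjusted p 0.0162) and so called 5 members, beside 17.5% of all genes. Gys2 held 260.1, 487 and 396 CPM in WT and 591, 572 and 432 CPM in GRLKO livers, with overlap and an adjusted p of 0.207, and the adjusted p of Gyg and Gbe1 were 0.211 and 0.566.

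Of the other glycogen genes 2 of 24 tested were called in GRLKO livers on caloric restriction at ZT12, beside 15.3% of all genes. Slc37a4, the transporter that carries glucose 6-phosphate to its phosphatase, held 352, 332 and 373 CPM in WT and 152, 156 and 149.9 CPM in GRLKO livers without overlap (log2 fold change -1.22 ± 0.08 SE, adjusted p 0.000300). Ppp1ca, a catalytic subunit of protein phosphatase 1, rose by 0.58 on the log2 scale (adjusted p 0.0340). Summed markers of 6 of 11 cell types did not overlap between the genotypes at this time. The 7 hepatocyte markers (Alb most abundant, none at 0, Ttr the other way) summed to 123064, 132082 and 114191 CPM in GRLKO livers and 165939, 171051 and 172973 CPM in WT livers. The 6 Kupffer and myeloid markers (Clec4f most abundant, none at 0) summed to 128, 97.3 and 153 CPM in GRLKO livers and 43.3, 73.7 and 52.5 CPM in WT livers. The 5 endothelial markers (Kdr most abundant, none at 0) summed to 154, 137 and 153 CPM in GRLKO livers and 103, 98.0 and 121 CPM in WT livers. The endothelial sums did not overlap between the groups, nor did those of the next lists. The 5 adipocyte markers (Cidec most abundant, Lep and Plin1 at 0 in GRLKO livers and Cfd, Lep and Plin1 at 0 in WT livers) summed to 2.25, 2.43 and 3.26 CPM in GRLKO livers and 1.90, 0.977 and 1.64 CPM in WT livers. The 5 cholangiocyte markers (Sox9 most abundant, Epcam at 0 in both groups, Krt19 and Krt7 the other way) summed to 2.66, 3.50 and 2.46 CPM in GRLKO livers and 6.60, 3.56 and 4.35 CPM in WT livers. The 5 lymphocyte markers (Cd3e most abundant, Nkg7 at 0 in WT livers, 2 of the 5 the other way) summed to 0.346, 0.637 and 0.554 CPM in GRLKO livers and 0.281, 0.219 and 0.226 CPM in WT livers. The part of these lists in the results was not tested, and each had all sums of a group on the same side of the other. In bulk tissue, fewer cells of a type and less RNA per cell cannot be told apart, and markers given as the other way had group means that moved against the sum of their list.

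At ZT16, 4 h after the meal, Gys2 and Ppp1r3c rose and Pygl fell in GRLKO livers on caloric restriction against WT. This is 3 of the 8 members tested, where 4.54% of 11905 genes were called, and the median size of change was 0.35 against 0.17 over all genes. Pygl held 468, 514 and 436 CPM in the 3 WT and 284, 317 and 289.6 CPM in the 3 GRLKO livers. No GRLKO liver reached the lowest WT liver. The log2 fold change was -0.67 ± 0.10 (SE) with an adjusted p of 0.0105 (range 9.81e-10 to 0.0469 over 11 alternatives), and every alternative kept the call. Gys2, the synthase, held 156, 170.0 and 179.8 CPM in WT and 283, 257 and 235 CPM in GRLKO livers, all of them above the WT values. Its log2 fold change of 0.61 ± 0.10 (adjusted p 0.0174) lost its call without WT replicate 1 (0.0784), WT replicate 2 (0.0550) or GRLKO replicate 2 (0.0544), and with the replicate block (0.0777), with a range of 6.24e-07 to 0.0784 over 11 alternatives. Ppp1r3c held 135, 195 and 186 CPM in WT and 252, 327 and 323 CPM in GRLKO livers. Here too the groups did not overlap. The log2 fold change was 0.81 ± 0.16 (adjusted p 0.0369), and the call was lost without WT replicate 1 (0.0843), WT replicate 2 (0.0535), WT replicate 3 (0.0871), GRLKO replicate 2 (0.108) or GRLKO replicate 3 (0.128), and in a single fit over all libraries of the diet (0.0703). The adjusted p of Ppp1r3c ran from 2.27e-05 to 0.128 over 11 alternatives.

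Ppp1r3b, the subunit that was low in GRLKO at ZT12, held 413, 457 and 387 CPM in WT and 473, 384 and 547 CPM in GRLKO livers on caloric restriction at ZT16, with overlap and an adjusted p of 0.610. Ugp2 held 358, 349 and 382 CPM and 445, 426 and 450.0 CPM and Phka2 15.4, 16.04 and 14.9 CPM and 17.3, 17.4 and 20.1 CPM in the same order. Both were higher in every GRLKO liver, but neither passed (adjusted p 0.1002 for Ugp2 and 0.255 for Phka2), and DESeq2 called 4 members in all, beside 7.05% of all genes. Of 25 other glycogen genes tested, 3 were called, each lower in GRLKO, beside 4.54% of all genes. They were Slc37a4 (log2 -1.0, adjusted p 0.00758), the catalytic subunit gene Ppp1cb (log2 -0.83, adjusted p 0.00307) and the glucose transporter gene Slc2a2 (log2 -0.41, adjusted p 0.0493). The 7 hepatocyte markers (Alb most abundant, none at 0, Hnf4a and Ttr the other way) summed to 123446, 100142 and 126572 CPM in GRLKO livers and 136308, 141407 and 136249 CPM in WT livers. The 5 adipocyte markers (Cidec most abundant, Lep and Plin1 at 0 in GRLKO livers and Cfd, Lep and Plin1 at 0 in WT livers, Adipoq the other way) summed to 13.1, 13.8 and 8.40 CPM in GRLKO livers and 1.85, 0.922 and 0.998 CPM in WT livers. These sums were mostly Cidec, with means of 11.7 CPM in GRLKO and 1.22 CPM in WT livers. Adipoq held 0.0193 and 0.0353 CPM and Cfd 0.0487 and 0 CPM in the same order. The 5 cholangiocyte markers (Sox9 most abundant, Epcam at 0 in both groups, Krt19 and Krt7 the other way) summed to 5.49, 6.01 and 5.38 CPM in GRLKO livers and 8.21, 6.81 and 6.19 CPM in WT livers. The cholangiocyte sums did not overlap between the groups, nor did those of the next lists. The 5 lymphocyte markers (Nkg7 in GRLKO livers and Cd3e in WT livers most abundant, none at 0) summed to 1.65, 1.07 and 0.630 CPM in GRLKO livers and 0.318, 0.284 and 0.235 CPM in WT livers. The 5 neutrophil markers (S100a9 most abundant, Camp and Ngp at 0 in both groups) summed to 0.867, 0.952 and 1.00 CPM in GRLKO livers and 0.371, 0.213 and 0.822 CPM in WT livers. The 6 skeletal muscle markers (Tnnt3 in GRLKO livers and Mylpf in WT livers most abundant, Ckm, Myh1, Myh4 and Mylpf at 0 in GRLKO livers and Ckm and Myh1 at 0 in WT livers) summed to 0.0578, 0 and 0.0626 CPM in GRLKO livers and 0.106, 1.86 and 0.411 CPM in WT livers. The groups did not overlap in any list given, and the part of these cells was not tested.

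**Figure D2:**
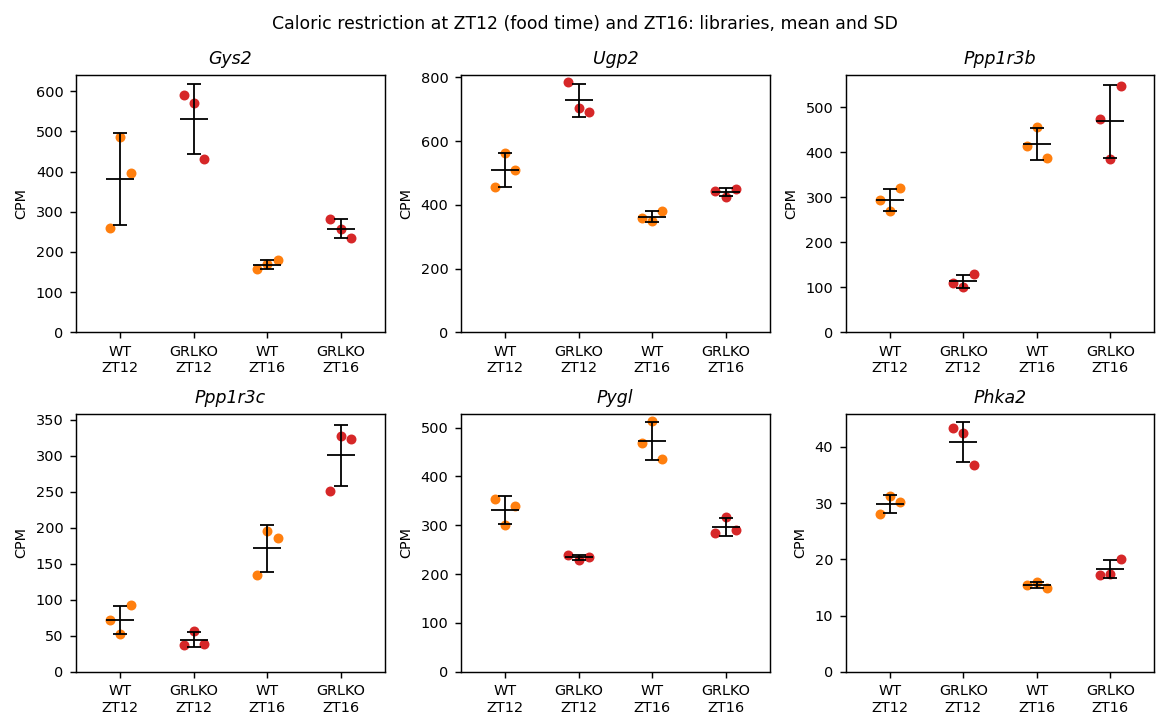
CPM (y axis) of members in each liver on caloric restriction at ZT12 and ZT16, by genotype (x axis), with the group mean and SD (n = 3). At ZT12 the Ppp1r3b values of GRLKO livers lie below all WT values, and at both times so do those of Pygl.

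The step from ZT12 to ZT16 on caloric restriction spans the meal. In WT livers 6 of 8 members tested were called, where 40.0% of 11768 genes were, and in GRLKO livers 6 of 8, where 37.8% of 11943 were. The median size of change over the members was 0.53 in WT and 0.87 in GRLKO, against 0.37 and 0.37 over all genes. In both genotypes Ppp1r3b, Ppp1r3c and Pygl rose and Gys2, Ugp2 and Phka2 fell. Ppp1r3b went from 293, 269 and 319 CPM to 413, 457 and 387 CPM in WT and from 109.6, 102 and 129 CPM to 473, 384 and 547 CPM in GRLKO livers. All livers at ZT16 were above all livers at ZT12 in each genotype. The log2 fold changes were 0.53 ± 0.10 (adjusted p 0.00628) and 2.06 ± 0.15 (adjusted p 0.000132), and that of WT lost its call in a single fit over all libraries of the diet (0.0706, with a range of 1.61e-05 to 0.0706 over 12 alternatives). Ppp1r3c changed by 1.28 ± 0.23 in WT (adjusted p 0.00442) and by 2.78 ± 0.19 in GRLKO (adjusted p 0.000108). Whether these steps differed between the genotypes was not tested.

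Gys2 changed by -1.16 in WT and -1.02 in GRLKO on the log2 scale (adjusted p 0.00513 and 0.00119) from ZT12 to ZT16 on caloric restriction, and Ugp2 by -0.47 and -0.71 (adjusted p 0.00864 and 0.000795). Phka2 changed by -0.93 ± 0.09 and -1.15 ± 0.10 (adjusted p 0.000387 and 0.000246), and Pygl by 0.53 and 0.36 (adjusted p 0.00607 and 0.0109). The Phka2 values at ZT16 were below all values at ZT12 in both genotypes. Gbe1 and Gyg were not called in either genotype (adjusted p 0.552 and 0.794 in WT, 0.831 and 0.883 in GRLKO). Scaling by total counts shifted the median of all genes by 0.169 on the log2 scale in WT, where Ugp2 then changed by -0.30 and Gys2 by -0.98, and the 6 directions were the same under both scalings. Among 25 other glycogen genes tested, 11 were called in WT (4 higher, 7 lower) and 12 in GRLKO (4 higher, 8 lower), beside 40.0% and 37.8% of all genes. In WT the largest were Nhlrc1 (2.41), a ubiquitin ligase gene of Lafora disease, G6pc (-1.43), which encodes the glucose 6-phosphatase, the synthase gene of other tissues Gys1 (1.41) and the glycogen binding protein gene Stbd1 (-0.67), all as log2 fold changes. In GRLKO livers the largest included Gckr (3.56), Nhlrc1 (3.11) and the targeting subunit gene Ppp1r3e (-1.50). Sums of 3 of 11 marker lists in WT and 4 in GRLKO did not overlap between these times. The 7 hepatocyte markers (Alb most abundant, none at 0) summed to 136308, 141407 and 136249 CPM in WT livers at ZT16 and 165939, 171051 and 172973 CPM in WT livers at ZT12. The 6 Kupffer and myeloid markers (Clec4f most abundant, none at 0) summed to 106, 144 and 138 CPM in WT livers at ZT16 and 43.3, 73.7 and 52.5 CPM in WT livers at ZT12. The 5 neutrophil markers (S100a9 in WT livers at ZT16 and S100a8 in WT livers at ZT12 most abundant, Camp and Ngp at 0 in WT livers at ZT16 and Camp, Ngp, Retnlg and S100a9 at 0 in WT livers at ZT12) summed to 0.371, 0.213 and 0.822 CPM in WT livers at ZT16 and 0, 0 and 0.0565 CPM in WT livers at ZT12. Whole groups lay apart in each of these lists, and their part in the results was not tested. The 5 adipocyte markers (Cidec most abundant, Lep and Plin1 at 0 in both groups, Adipoq and Cfd the other way) summed to 13.1, 13.8 and 8.40 CPM in GRLKO livers at ZT16 and 2.25, 2.43 and 3.26 CPM in GRLKO livers at ZT12. The 5 cholangiocyte markers (Sox9 most abundant, Epcam at 0 in both groups) summed to 5.49, 6.01 and 5.38 CPM in GRLKO livers at ZT16 and 2.66, 3.50 and 2.46 CPM in GRLKO livers at ZT12. The 5 neutrophil markers (S100a9 most abundant, Camp and Ngp at 0 in GRLKO livers at ZT16 and Ngp at 0 in GRLKO livers at ZT12, Camp the other way) summed to 0.867, 0.952 and 1.00 CPM in GRLKO livers at ZT16 and 0.577, 0 and 0.308 CPM in GRLKO livers at ZT12. The neutrophil sums did not overlap between the groups, nor did those of the next list. The 7 exocrine pancreas markers (Cela2a most abundant, Amy2b, Cel, Cela1, Cpa1, Pnlip and Prss2 at 0 in GRLKO livers at ZT16 and Amy2b, Cel, Cpa1, Pnlip and Prss2 at 0 in GRLKO livers at ZT12) summed to 0, 0.0595 and 0 CPM in GRLKO livers at ZT16 and 0.115, 0.242 and 0.0615 CPM in GRLKO livers at ZT12. The part of these lists in the results was not tested, and each had all sums of a group on the same side of the other.

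At the 4 other times on caloric restriction edgeR called 0 members between the genotypes. The tested members were 8 at ZT0 and ZT20 and 9 at ZT4 and ZT8, and the share of all genes called was 0.502%, 0.69%, 2.55% and 1.47% at ZT0, ZT4, ZT8 and ZT20. With shares that low, a count of 0 says little about the members. The median size of change over the members was 0.20, 0.16, 0.29 and 0.25, against 0.13, 0.16, 0.16 and 0.19 over all genes. At an unadjusted p under 0.05 the counts of members were 2, 2, 1 and 3, beside 13.2%, 14.6%, 17.3% and 19.4% of all genes. DESeq2 called 2, 0, 1 and 2 of them, beside 3.06%, 3.43%, 5.27% and 5.35% of all genes. Pygl was lower in GRLKO at all 6 times of the series on this diet, with log2 differences from -0.67 to -0.17 and no overlap at 4 times. At ZT0 it held 407, 419 and 411 CPM in WT and 339.6, 334 and 305 CPM in GRLKO livers, apart but not called (adjusted p 0.0926). Phka2 was higher at all 6 times, by 0.12 to 0.45, and Gbe1, the branching enzyme gene, lower at all 6, by -0.30 to -0.06, except that total counts in place of TMM scaling gave 0.06 at ZT12. Ppp1r3b differed by -1.38 to 0.16, lower at 5 of 6 times with TMM scaling, of which ZT0 and ZT4 turned to 0.04 and 0.03 with total counts. Gyg, which primes chains, was higher at 5 of 6 times (at all 6 with total counts), by up to 0.78, and was called at no time. Ppp1r3c at ZT8 held 32.9, 18.7 and 35.5 CPM in WT and 84.1, 50.1 and 78.1 CPM in GRLKO livers. Its groups did not overlap there, with a log2 difference of 1.29 (adjusted p 0.0609). Of the other glycogen genes Slc37a4 alone was called at ZT8 (log2 -0.81) and at ZT20 (log2 -0.90), and 0 of 25 at ZT0 and ZT4 by edgeR, beside 3 and 4 at an unadjusted p under 0.05 and 1 and 2 by DESeq2.

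Beside these Pygl, Phka2 and Gbe1 levels, summed markers of 5, 2, 3 and 1 of 11 cell types did not overlap between the genotypes on caloric restriction at ZT0, ZT4, ZT8 and ZT20. At ZT0 the 7 hepatocyte markers (Alb most abundant, none at 0, Ttr the other way) summed to 104669, 105522 and 99509.8 CPM in GRLKO livers and 116784, 120282 and 120121 CPM in WT livers. At ZT0 the 6 skeletal muscle markers (Tnnt3 in GRLKO livers and Myh4 in WT livers most abundant, Acta1 and Ckm at 0 in GRLKO livers and Acta1, Ckm, Myh1, Mylpf and Tnnt3 at 0 in WT livers, Myh4 the other way) summed to 0.105, 0.11 and 0.0554 CPM in GRLKO livers and 0, 0.0537 and 0 CPM in WT livers. At ZT0 the 5 adipocyte markers (Cidec most abundant, Lep and Plin1 at 0 in GRLKO livers and Adipoq, Cfd, Lep and Plin1 at 0 in WT livers) summed to 5.37, 10.5 and 3.93 CPM in GRLKO livers and 0.383, 0.752 and 0.230 CPM in WT livers. The adipocyte sums did not overlap between the groups, nor did those of the next lists. At ZT0 the 5 lymphocyte markers (Cd79a most abundant, none at 0, 1 of the 5 the other way) summed to 5.93, 5.84 and 4.10 CPM in GRLKO livers and 2.39, 2.79 and 3.21 CPM in WT livers. At ZT0 the 5 neutrophil markers (S100a9 most abundant, Camp at 0 in WT livers) summed to 1.95, 3.54 and 1.77 CPM in GRLKO livers and 1.25, 0.752 and 1.19 CPM in WT livers. The groups did not overlap in any list given, and the part of these cells was not tested. At ZT4 the 5 adipocyte markers (Cidec most abundant, Adipoq, Cfd, Lep and Plin1 at 0 in GRLKO livers and Cfd, Lep and Plin1 at 0 in WT livers, Adipoq the other way) summed to 2.53, 3.15 and 2.23 CPM in GRLKO livers and 0.408, 0.416 and 0.652 CPM in WT livers. At ZT4 the 5 endothelial markers (Kdr most abundant, none at 0) summed to 187, 187 and 154 CPM in GRLKO livers and 121, 114 and 128 CPM in WT livers. Whole groups lay apart in each of these lists, and their part in the results was not tested. At ZT8 the 7 hepatocyte markers (Alb most abundant, none at 0) summed to 108680.0, 103785 and 105005 CPM in GRLKO livers and 137357, 117672 and 112649 CPM in WT livers. At ZT8 the 5 adipocyte markers (Cidec most abundant, Lep and Plin1 at 0 in GRLKO livers and Cfd, Lep and Plin1 at 0 in WT livers, Adipoq the other way) summed to 3.38, 4.84 and 4.53 CPM in GRLKO livers and 0.851, 0.217 and 0.216 CPM in WT livers. At ZT8 the 5 endothelial markers (Kdr most abundant, none at 0) summed to 142, 146 and 157 CPM in GRLKO livers and 109, 123 and 112 CPM in WT livers. The part of these lists in the results was not tested, and each had all sums of a group on the same side of the other. At ZT20 the 5 adipocyte markers (Cidec most abundant, Lep and Plin1 at 0 in GRLKO livers and Adipoq, Cfd, Lep and Plin1 at 0 in WT livers) summed to 3.93, 1.16 and 6.84 CPM in GRLKO livers and 0.306, 0.237 and 0.173 CPM in WT livers. The part of this list at ZT20 was not tested either.

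On control diet edgeR called 0 members between the genotypes at each of the 6 times. The members tested were 9 at ZT12 and 8 at the other times, and the share of all genes called was 0.536%, 0.195%, 1.43%, 2.08%, 1.98% and 0.42% from ZT0 to ZT20. In the same order, 0, 1, 0, 1, 1 and 2 members had an unadjusted p under 0.05, beside 15.3%, 9.75%, 11.2%, 12.6%, 16.6% and 11.3% of all genes. DESeq2 called 0, 1, 0, 0, 1 and 0 of them, beside 3.03%, 1.53%, 2.77%, 4.31%, 5.08% and 2.13% of all genes. The median size of change ran from 0.06 to 0.28 over the members and from 0.10 to 0.18 over all genes. Without WT replicate 3 at ZT16, edgeR called 1 member, beside 1.58% of all genes at that time. At ZT12 Ppp1r3b held 188, 121, 38.1 and 38.3 CPM in the 4 WT livers and 14.1, 24.0, 30.6 and 90.6 CPM in the 4 GRLKO livers. Both groups were spread widely and overlapped, with a log2 difference of -1.27 ± 0.68 (adjusted p 0.517). Ppp1r3b was lower in GRLKO at all 6 times, by -1.27 to -0.09, and Phka2 higher at all 6, by 0.03 to 0.16. Ppp1r3g at ZT12 held 0, 0.685, 2.16 and 0 CPM in WT and 3.68, 3.38, 6.02 and 3.36 CPM in GRLKO livers. Every GRLKO liver was higher, but the gene passed the count filter through the GRLKO livers. Its log2 difference of 2.49 ± 0.88 (adjusted p 0.256) depends on the prior count at WT levels this low. Pygl was lower in GRLKO at 4 and higher at 2 of the 6 times, with log2 differences from -0.4 to 0.07 and no overlap at 2 times. At ZT16 it held 536, 510.5, 527 and 439 CPM in WT and 432, 374 and 423 CPM in GRLKO livers, where the groups did not overlap (log2 -0.30, adjusted p 0.169). Among other glycogen genes Slc37a4 fell in GRLKO at ZT12 (log2 -0.83) and ZT16 (log2 -0.88), and G6pc at ZT16 (log2 -0.99). At ZT0, ZT4, ZT8 and ZT20 edgeR called 0 of them, beside 6, 2, 4 and 4 at an unadjusted p under 0.05 and 0, 0, 1 and 2 by DESeq2.

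Beside the Ppp1r3b, Phka2 and Pygl levels on control diet, summed markers of 2, 3, 1, 0, 2 and 2 of 11 cell types did not overlap between the genotypes from ZT0 to ZT20. At ZT16 the 7 hepatocyte markers (Alb most abundant, none at 0, Ttr the other way) summed to 87396, 77589 and 87232 CPM in GRLKO livers and 96941, 102695, 96466 and 91469 CPM in WT livers. At ZT16 the 5 cholangiocyte markers (Sox9 most abundant, Epcam at 0 in WT livers, Cftr and Epcam the other way) summed to 6.87, 7.06 and 5.97 CPM in GRLKO livers and 8.38, 11.6, 7.65 and 8.21 CPM in WT livers. The groups did not overlap in any list given, and the part of these cells was not tested. At ZT0 the 6 skeletal muscle markers (Acta1 in WT livers most abundant, Acta1, Ckm, Myh1, Myh4, Mylpf and Tnnt3 at 0 in GRLKO livers) summed to 0, 0 and 0 CPM in GRLKO livers and 16.7, 0.760 and 0.863 CPM in WT livers. At ZT0 the 5 adipocyte markers (Cfd in GRLKO livers and Cidec in WT livers most abundant, Adipoq, Lep and Plin1 at 0 in GRLKO livers and Lep and Plin1 at 0 in WT livers, Adipoq the other way) summed to 63.8, 42.1 and 29.6 CPM in GRLKO livers and 3.63, 0.691 and 8.53 CPM in WT livers. Whole groups lay apart in each of these lists, and their part in the results was not tested. At ZT4 the 7 hepatocyte markers (Alb most abundant, none at 0) summed to 74880.3, 75150.5 and 82192 CPM in GRLKO livers and 98631, 98262 and 99777 CPM in WT livers. At ZT4 the 5 adipocyte markers (Cidec most abundant, Lep and Plin1 at 0 in GRLKO livers and Cfd, Lep and Plin1 at 0 in WT livers, Adipoq the other way) summed to 39.1, 27.6 and 9.44 CPM in GRLKO livers and 0.908, 0.697 and 0.545 CPM in WT livers. At ZT4 the 5 cholangiocyte markers (Sox9 most abundant, Epcam at 0 in both groups) summed to 5.20, 6.44 and 4.01 CPM in GRLKO livers and 7.25, 10.5 and 8.48 CPM in WT livers. The part of these lists in the results was not tested, and each had all sums of a group on the same side of the other. At ZT8 the 5 adipocyte markers (Cfd in GRLKO livers and Cidec in WT livers most abundant, Lep and Plin1 at 0 in GRLKO livers and Adipoq, Lep and Plin1 at 0 in WT livers) summed to 30.7, 17.9, 58.7 and 33.9 CPM in GRLKO livers and 1.62, 1.21, 0.485 and 4.91 CPM in WT livers. At ZT20 the 6 skeletal muscle markers (Mylpf most abundant, Acta1, Ckm, Myh1 and Myh4 at 0 in GRLKO livers and Acta1, Myh1, Myh4 and Tnnt3 at 0 in WT livers, Tnnt3 the other way) summed to 0.133, 0.179 and 0 CPM in GRLKO livers and 0.533, 0.433, 0.210 and 0.491 CPM in WT livers. At ZT20 the 5 adipocyte markers (Cfd in GRLKO livers and Cidec in WT livers most abundant, Adipoq, Lep and Plin1 at 0 in GRLKO livers and Lep and Plin1 at 0 in WT livers, Adipoq the other way) summed to 19.5, 57.9 and 13.7 CPM in GRLKO livers and 0.645, 2.60, 2.28 and 0.737 CPM in WT livers. The groups did not overlap in any list given, and the part of these cells was not tested.

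From ZT12 to ZT16 on control diet Ppp1r3c rose and Gys2, Phka2 and Ugp2 fell in WT livers, and in GRLKO livers Phka2 fell, as did Ppp1r3g, which passed the count filter through the ZT12 livers alone. In WT this is 4 of 8 members tested, where 13.4% of 11452 genes were called, and in GRLKO 2 of 9, where 9.06% of 11753 were. The GRLKO count includes Ppp1r3g, which the filter kept only for its ZT12 counts, so Phka2 is the only other call. At an unadjusted p under 0.05 there were 5 members in WT and 6 in GRLKO, beside 3437 and 2820 of all genes. DESeq2 called 5 and 3 members, beside 1905 and 1397 of all genes. The median size of change was 0.42 and 0.50 over the members and 0.19 and 0.20 over all genes, WT first. Ppp1r3c went from 32.6, 30.3, 22.2 and 28.6 CPM to 84.1, 80.3, 36.0 and 84.8 CPM in WT livers. Replicate 3 was the lowest at ZT16 and still above all livers at ZT12, and the log2 fold change was 1.33 ± 0.26 (adjusted p 0.0118). Gys2 changed by -0.42 (adjusted p 0.00679), Phka2 by -0.73 (adjusted p 0.00315) and Ugp2 by -0.42 (adjusted p 0.0165) in WT. The call of Ugp2 was lost without WT replicate 3 (0.0527) or WT replicate 4 (0.0541) at ZT16, and with the replicate block (0.0539), with a range of 0.000175 to 0.0541 over 14 alternatives. In GRLKO livers Phka2 went from 29.6, 28.5, 34.3 and 30.0 CPM to 20.9, 17.9 and 19.6 CPM, with no overlap and a log2 fold change of -0.64 ± 0.10 (adjusted p 0.00969), a call lost with the replicate block (0.0769, with a range of 2.25e-05 to 0.0769 over 12 alternatives). Ppp1r3g went from 3.68, 3.38, 6.02 and 3.36 CPM to 0, 0.161 and 0.475 CPM, the latter from 0, 2 and 6 counts. Its log2 fold change of -4.26 ± 0.68 (adjusted p 0.01000) depends on the prior count at levels this low, and the ZT16 counts alone would not have passed the filter. The call was kept with no filter on low counts (adjusted p 0.00691) and lost with the replicate block (0.0669) and in a single fit over all libraries of the diet (0.0845, with a range of 9.81e-09 to 0.0845 over 12 alternatives). Whether the steps differed between the genotypes was not tested.

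Among 24 other glycogen genes tested from ZT12 to ZT16 on control diet, 3 were called in WT and 5 in GRLKO. Beside these, 13.4% and 9.06% of all genes were called, and the WT count is near that share. In WT these included Slc2a2 (log2 -0.45) and the synthase kinase gene Gsk3a (log2 -0.31). In GRLKO livers the largest included the muscle kinase subunit gene Phka1 (log2 0.62), Stbd1 (log2 -0.59) and Slc2a2 (log2 -0.55). Sums of 3 of 11 marker lists in WT and 2 in GRLKO did not overlap between these times. The 5 endothelial markers (Kdr most abundant, none at 0) summed to 74.6, 77.9, 76.4 and 74.5 CPM in WT livers at ZT16 and 61.5, 51.5, 54.0 and 62.4 CPM in WT livers at ZT12. The 5 stellate markers (Dcn most abundant, none at 0) summed to 184, 127, 191 and 162 CPM in WT livers at ZT16 and 112, 89.3, 76.7 and 112 CPM in WT livers at ZT12. The 5 cholangiocyte markers (Sox9 most abundant, Epcam at 0 in both groups, Cftr the other way) summed to 8.38, 11.6, 7.65 and 8.21 CPM in WT livers at ZT16 and 5.29, 3.35, 3.92 and 5.32 CPM in WT livers at ZT12. Whole groups lay apart in each of these lists, and their part in the results was not tested. The 5 cholangiocyte markers (Sox9 most abundant, Epcam at 0 in GRLKO livers at ZT12, Cftr the other way) summed to 6.87, 7.06 and 5.97 CPM in GRLKO livers at ZT16 and 3.69, 3.16, 2.86 and 5.38 CPM in GRLKO livers at ZT12. The 5 lymphocyte markers (most abundant Cd79a, Nkg7 the other way) were lower at ZT16, with sums of 0.340, 0.402 and 0.0792 CPM in GRLKO livers at ZT16 and 0.621, 0.552, 0.809 and 0.959 CPM at ZT12. Neither list overlapped between the times in GRLKO livers, and their part in the results was not tested.

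The interaction of genotype and diet asks whether the GRLKO difference itself differed between the diets. A constant shift between the count tables of the diets drops out of it. At ZT12, 1 of 9 members was called, where 1.01% of 12225 genes were, and at ZT16 0 of 8, where 0.234% of 12385 were. The member called was Ugp2. Its levels at ZT12 on control diet were 442, 506, 537 and 437 CPM in WT and 443, 455, 413 and 447 CPM in GRLKO livers, a log2 difference of -0.13, against 0.51 on caloric restriction. On control diet the genotypes overlapped, and on caloric restriction they did not. The interaction was 0.65 ± 0.13 on the log2 scale (adjusted p 0.0360). The call was lost without any of 11 libraries taken singly: on control diet WT replicates 2 (0.0724) and 3 (0.0767), and GRLKO replicates 1 (0.0748), 2 (0.0582), 3 (0.0597) and 4 (0.0616). On caloric restriction they were WT replicates 1 (0.0737) and 3 (0.0862) and GRLKO replicates 1 (0.0810), 2 (0.0618) and 3 (0.0723), with adjusted p in brackets. It was also lost with no filter on low counts (0.0588), with the replicate block (0.191) and without both libraries that held other-tissue markers (0.141), with a range of 0.000130 to 0.191 over 19 alternatives. At ZT12 the interaction of Ppp1r3b was -0.10 ± 0.85 (adjusted p 0.980) and that of Pygl -0.28 ± 0.17 (adjusted p 0.494). So the ZT12 calls of Ppp1r3b, Pygl and Phka2 on caloric restriction alone are not shown to differ from control diet, and the interaction of Phka2 was 0.38 ± 0.12 (adjusted p 0.159).

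At ZT16, 3 members had an unadjusted p under 0.05 for the interaction of genotype and diet, beside 10.5% of all genes, and DESeq2 called 1, Ppp1r3c (adjusted p 0.0272), beside 1.45% of all genes. With edgeR the interaction of Ppp1r3c was 1.26 ± 0.36 (adjusted p 0.226). On control diet at ZT16 Ppp1r3c held 84.1, 80.3, 36.0 and 84.8 CPM in WT and 54.6, 51.8 and 49.8 CPM in GRLKO livers, which overlapped. Over both times 2 members were called without WT replicate 3, and 2 without GRLKO replicate 3, of control diet at ZT16, where 0.397% and 0.207% of all genes were called at ZT16. Of the other glycogen genes 0 of 25 were called at ZT12 by edgeR (3 at an unadjusted p under 0.05, 1 by DESeq2, beside 14.2% and 4.09% of all genes) and 1 of 26 at ZT16, the catalytic subunit gene Ppp1cb (log2 -0.80, adjusted p 0.00193). By edgeR 1.01% and 0.234% of all genes were called at these times.

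In the diet experiment at ZT12 Ppp1r3b and Ppp1r3g rose on caloric restriction against control diet, and Gys2, Ugp2 and Phka2 fell. These are 5 of the 9 members, where 47.1% of 13062 genes were called, so the share of members is close to that of all genes. The median size of change was 0.49 over the members and 0.37 over all genes tested. The phosphatase subunit Ppp1r3b held 57.8, 71.7 and 139 CPM in the 3 control livers and 249, 185 and 203 CPM in the 3 restricted livers. Control replicate 3 was the nearest to the restricted livers, and the groups did not overlap. The log2 fold change was 1.25 ± 0.31 (SE) with an adjusted p of 0.0147, and the call was lost without control replicate 2 (0.0575), with a range of 0.00166 to 0.0575 over 10 alternatives. Ppp1r3g, another such subunit, held 3.55, 2.22 and 1.61 CPM and 23.6, 18.3 and 52.1 CPM in the same order. Every restricted liver was above every control liver, by a log2 fold change of 3.66 ± 0.47 (adjusted p 0.00116). Ppp1r3c held 19.4, 21.5 and 32.8 CPM and 108, 33.6 and 16.7 CPM, with restricted replicate 1 far above the others and an adjusted p of 0.180.

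Gys2 held 437, 378 and 401 CPM on control diet and 259.6, 255 and 219 CPM on caloric restriction. All restricted livers were below all control livers. The synthase gene changed by -0.73 ± 0.10 on the log2 scale (adjusted p 0.00120). Ugp2 held 418, 508 and 465.6 CPM and 400.3, 346 and 311 CPM, again without overlap. Its change of -0.40 ± 0.12 (adjusted p 0.0262) lost its call without control replicate 2 (0.0928), control replicate 3 (0.0637), restricted replicate 2 (0.0844) or restricted replicate 3 (0.0791), with a range of 0.00411 to 0.0928 over 10 alternatives. Phka2 held 32.2, 31.2 and 29.5 CPM and 25.1, 22.6 and 18.7 CPM, all restricted livers lower, with a change of -0.49 ± 0.11 (adjusted p 0.0105). Without control replicate 2, 3 of the 9 members were called, beside 34.0% of all genes. Pygl held 365, 420.3 and 423 CPM and 372, 341 and 342 CPM, with overlap (adjusted p 0.0962), and Gbe1 and Gyg had adjusted p of 0.0727 and 0.237. Scaling by total counts shifted the median of all genes by -0.122 on the log2 scale, and the 5 directions were the same under both scalings.

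The WT livers of the time series at ZT12 give the same contrast. Each diet has its own count table there, so diet and any library batch cannot be told apart. Ppp1r3b was higher on caloric restriction there too (log2 1.60, adjusted p 0.0453). Gys2 did not pass (log2 -0.14, adjusted p 0.607), and the small differences of Phka2 (0.03, adjusted p 0.774) and Ugp2 (0.07, adjusted p 0.638) had the opposite sign. Ppp1r3g held 0, 0.685, 2.16 and 0 CPM in these WT livers on control diet and 0, 30.6 and 0 CPM on caloric restriction, so that its rise was seen in 1 of 3 restricted livers and the 2 others were at 0. Within the diet experiment the adjusted p of Gys2 ran from 1.33e-11 to 0.00659 over 10 alternatives, and that of Phka2 from 0.00116 to 0.0405 over 10 alternatives. Of 27 other glycogen genes tested in the diet experiment 11 were called, 5 higher and 6 lower, beside 47.1% of all genes. The largest changes were those of Nhlrc1 (log2 -1.98), Epm2a (log2 -1.62), the gene of the glycogen phosphatase laforin, G6pc (log2 1.21) and the kinase subunit gene Phkb (log2 -0.74). Of 11 marker lists, 7 had sums that did not overlap between the diets. The 7 hepatocyte markers (Alb most abundant, none at 0, Apoa1 and Serpina1c the other way) summed to 159490.0, 160621 and 166624 CPM in restricted livers and 88799.9, 88259 and 94864.5 CPM in control livers. The 5 endothelial markers (Kdr most abundant, none at 0) summed to 146, 140.1 and 167 CPM in restricted livers and 87.4, 116 and 115 CPM in control livers. The 5 stellate markers (Dcn most abundant, none at 0, Col1a1 and Lrat the other way) summed to 274, 241 and 276 CPM in restricted livers and 192, 203 and 162 CPM in control livers. The stellate sums did not overlap between the groups, nor did those of the next lists. The 5 cholangiocyte markers (Sox9 most abundant, Epcam at 0 in both groups) summed to 8.64, 7.90 and 10.3 CPM in restricted livers and 4.17, 4.34 and 5.07 CPM in control livers. The 5 adipocyte markers (Cidec most abundant, Cfd, Lep and Plin1 at 0 in restricted livers and Lep and Plin1 at 0 in control livers, Adipoq the other way) summed to 1.93, 1.69 and 2.24 CPM in restricted livers and 5.92, 9.49 and 4.49 CPM in control livers. The 5 lymphocyte markers (Nkg7 in restricted livers and Cd79a in control livers most abundant, none at 0) summed to 0.455, 0.545 and 0.685 CPM in restricted livers and 2.25, 3.22 and 1.64 CPM in control livers. The lymphocyte sums did not overlap between the groups, nor did those of the next list. The 5 neutrophil markers (S100a9 most abundant, Camp, Ngp and Retnlg at 0 in restricted livers) summed to 0.171, 0.234 and 0.273 CPM in restricted livers and 0.325, 0.653 and 0.710 CPM in control livers. The part of these lists in the results was not tested, and each had all sums of a group on the same side of the other.

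**Figure D3:**
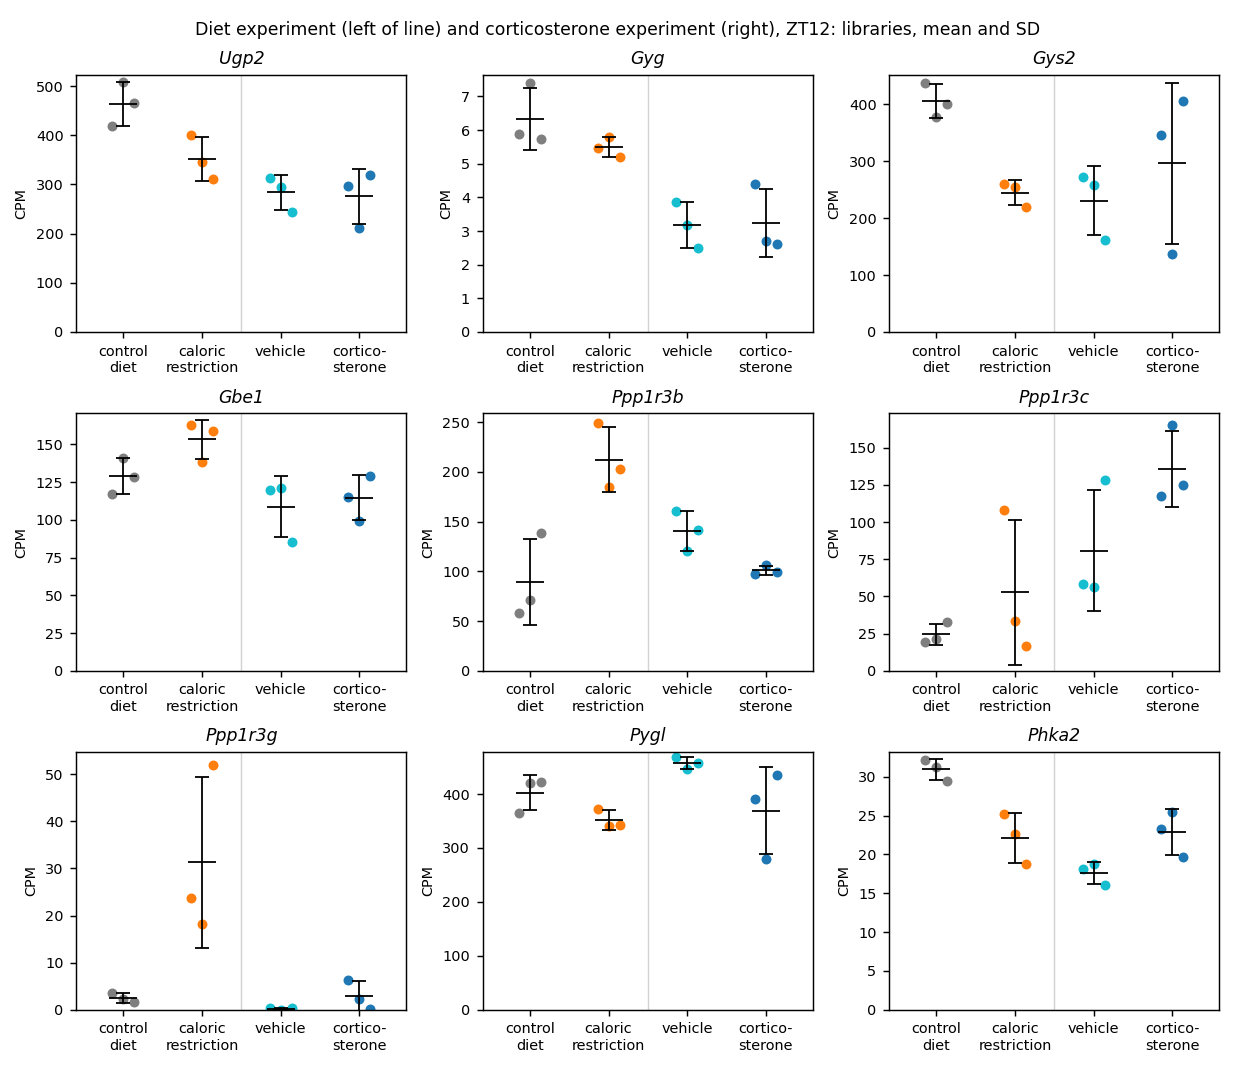
CPM (y axis) of each member in each liver of the diet experiment and of the corticosterone experiment at ZT12, by treatment (x axis), with the group mean and SD (n = 3). Ppp1r3b and Ppp1r3g lie higher and Gys2, Ugp2 and Phka2 lower in all restricted livers than in all control livers.

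After 7 days of corticosterone, edgeR called 0 of the 8 members tested at ZT12, where 8.11% of 11523 genes were called. At an unadjusted p under 0.05 there were 2 members beside 26.0% of all genes, and DESeq2 called 2 beside 10.8% of all genes, while the median size of change was 0.34 over the members and 0.24 over all genes. Ppp1r3b, which was higher on caloric restriction, held 161, 120.4 and 141 CPM with vehicle and 97.6, 107 and 99.5 CPM with corticosterone. The treated livers were all below the vehicle livers. The log2 difference was -0.48 ± 0.12 with an adjusted p of 0.0540 by edgeR, 0.0112 by DESeq2 and 0.0224 with total counts in place of TMM scaling. Leaving out vehicle replicate 3 made 1 member pass, beside 3.73% of all genes. Ppp1r3g had too few counts for edgeR's filter, with 0.390, 0 and 0.274 CPM and 6.37, 2.29 and 0.0699 CPM, and an adjusted p of 0.0260 by DESeq2. Its treated replicate 3 was as low as the vehicle livers. Phka2 held 18.1, 18.8 and 16.01 CPM and 23.3, 25.5 and 19.7 CPM, higher in every treated liver but not called (log2 0.38 ± 0.13, adjusted p 0.125).

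In the corticosterone experiment Gys2 held 272, 259 and 161 CPM with vehicle and 347, 137 and 405 CPM after treatment, with treated replicate 2 below all others. Ppp1r3c held 58.4, 56.2 and 128 CPM and 117, 165 and 125 CPM, where vehicle replicate 3 lay among the treated livers. Pygl held 468, 446 and 457 CPM and 391, 279 and 436 CPM, all treated livers lower, with a log2 difference of -0.31 ± 0.16 (adjusted p 0.266). The adjusted p of Gys2, Ugp2, Gbe1 and Gyg were 0.616, 0.905, 0.821 and 0.986. Of 25 other glycogen genes tested 1 was called, the catalytic subunit gene Ppp1cc (log2 0.52, adjusted p 0.0218), beside 8.11% of all genes. Of 11 marker lists, 4 had sums that did not overlap between the treatments. The 6 Kupffer and myeloid markers (Clec4f most abundant, none at 0) summed to 93.0, 133 and 116 CPM in treated livers and 63.0, 81.4 and 88.7 CPM in vehicle livers. The 5 endothelial markers (Kdr most abundant, none at 0, Lyve1 the other way) summed to 52.7, 63.7 and 64.3 CPM in treated livers and 66.0, 76.8 and 80.6 CPM in vehicle livers. The 5 erythrocyte markers (Hbb-bs most abundant, none at 0) summed to 327, 558 and 301 CPM in treated livers and 699, 632 and 785 CPM in vehicle livers. The erythrocyte sums did not overlap between the groups, nor did those of the next list. The 5 neutrophil markers (S100a9 most abundant, Camp at 0 in vehicle livers) summed to 2.45, 2.01 and 1.57 CPM in treated livers and 0.0719, 0.684 and 0.616 CPM in vehicle livers. The groups did not overlap in any list given, and the part of these cells was not tested.

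How alike the members' courses were is described by Pearson's r over the means of the 24 groups of the time series, which share their livers between genes and their times between groups. Of the 36 pairs of members, 17 had a positive and 19 a negative r, from -0.883 to 0.896 with a median of -0.0960. Gys2 and Ugp2, consecutive steps of synthesis, had the highest r at 0.896. The lowest was that of Ppp1r3b and Phka2 at -0.883, and Ppp1r3c had an r of -0.772 with Ugp2 and -0.722 with Gys2. The targeting subunits Ppp1r3b and Ppp1r3c had an r of 0.583, and Pygl and Phka2 of -0.400. Among 8866 genes with a mean of at least 5 CPM, the 3 most like each member were named by r. For Gys2 they were Lrp4 (0.971), Cyp2a5 (0.965) and Wee1 (0.952), and for Ugp2 Uox (0.970), Bbox1 (0.939) and Tbc1d16 (0.933). Those of Gbe1 were Ripk4 (0.849), Aifm2 (0.846) and Vamp3 (0.838), and those of Gyg Flvcr2 (0.879), Arl2bp (0.843) and Abcd2 (0.839). For Ppp1r3b they were Ncoa5 (0.965), Cry1 (0.944) and Invs (0.929). Ppp1r3c had Tubb2a (0.900), Dtx4 (0.900) and Zfp26 (0.899), and Ppp1r3g, near 0 in most groups, had Zranb1 (0.658), Pdcd10 (0.648) and Mrps10 (0.638). Pygl had Fam210b (0.886), Sdc2 (0.880) and As3mt (0.874), and Phka2 Smurf1 (0.969), Dazap2 (0.969) and Ube2e2 (0.968).

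The promoters of the members were searched for letters that bear on time of day and on the receptor. RefSeq promoters on build GRCm38.p6, from 250 bases before to 50 after each start, were matched for 7 of the 9 members, with Gys2 and Ppp1r3b missing. The E-box letters CACGTG, which read the same on both strands and to which clock transcription factors are known to bind, were in 2349 of all 32851 promoters of the same length (7.15%). The core letters of the glucocorticoid response element, AGAACA or TGTTCT on either strand, were in 6233 (19.0%). The E-box letters had 1 match in Ppp1r3c and 1 in Gyg, and those of the response element 1 in Phka2. Neither was found in Pygl, Ppp1r3g, Gbe1 or the 2 windows of Ugp2, and a match is a description of the letters only. The windows of Ppp1r3c (chr19:36736555-36736854, minus strand) and Phka2 (chrX:160501912-160502211, plus strand) are shown because they hold a match and both genes had a daily rhythm in WT livers and a call between the genotypes on caloric restriction, as Pygl and Ugp2 had without a match, with the matching letters in capitals.
Ppp1r3c: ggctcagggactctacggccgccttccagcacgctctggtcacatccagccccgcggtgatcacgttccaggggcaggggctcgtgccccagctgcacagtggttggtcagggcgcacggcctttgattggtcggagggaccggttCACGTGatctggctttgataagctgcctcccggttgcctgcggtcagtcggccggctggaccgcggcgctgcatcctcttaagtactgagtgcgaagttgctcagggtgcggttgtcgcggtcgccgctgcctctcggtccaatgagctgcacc
Phka2: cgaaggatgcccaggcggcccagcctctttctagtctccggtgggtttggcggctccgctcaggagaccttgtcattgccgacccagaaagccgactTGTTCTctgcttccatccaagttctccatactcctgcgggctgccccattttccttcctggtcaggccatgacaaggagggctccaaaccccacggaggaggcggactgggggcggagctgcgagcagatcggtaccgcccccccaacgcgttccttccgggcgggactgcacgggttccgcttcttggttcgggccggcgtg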

How the data were processed

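The authors checked reads with FastQC, quantified them with Salmon and summed transcripts to genes with tximport, and the deposited tables hold their estimated counts for each gene without normalization. A deposited table of variance-stabilised values (VST, 6 columns) was set aside, since tests were made on counts. Members, the 29 other glycogen genes and the marker lists were chosen with earlier results of these data known. In R 4.3.3 counts were rounded, and each comparison was fitted on its own libraries with edgeR 4.0.16 (quasi-likelihood F test, two-sided), TMM scaling and filterByExpr at a minimum count of 10. Genes with a Benjamini-Hochberg adjusted p under 0.05, over all genes tested, were called. The interaction was fitted at each time over the 4 groups with a term for diet. JTK_CYCLE was run with its exact null distribution on VST values (DESeq2 1.42.0), and differences between rhythms were fitted with limma 3.58.1. Alternatives were DESeq2, scaling by total counts, no filter, replicate number as a block, a single fit per diet, each library left out, and for rhythms log2 CPM, a filter, the amplitude limit dropped and a limma fit. Between genotypes, from ZT12 to ZT16, for the interaction and for rhythms, the 3 libraries with markers of other tissues were also left out. This further alternative was chosen after seeing the data. No 2 libraries of a group were identical among 102 pairs, by a chi-square test with at least 10.9 per degree of freedom. Named were the 9 members and Nr3c1, up to 4 called other glycogen genes per comparison with the largest log2 fold change, and the 3 genes most like each member, and items withheld from the text are not reported here. The precision is given as the SD or SE over 3 or 4 livers per group, which takes in the counting error of each library. The scripts were also tested on simulated data.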

Additional observations from a re-analysis of the deposited data

Results flagged for a closer look

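Among 54 groups of 4 values tested (a member in the livers of a group), 4 held 1 liver far from the others, and chance gives about 1 in 20 groups. Ppp1r3c held 36.0 CPM in a WT liver (replicate 3) on control diet at ZT16, beside 84.1, 80.3, 36.0 and 84.8 CPM for the whole group. Ugp2 held 399 CPM in replicate 1 of the same group, whose 4 livers held 399, 347, 339.6 and 349 CPM. Ppp1r3g held 6.02 CPM in GRLKO replicate 3 on control diet at ZT12, and 3.65 CPM in GRLKO replicate 2 at ZT8, where the 3 others were at 0.

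Ugp2 had an interaction of genotype and diet at ZT12 of 0.65 on the log2 scale, a call lost in 14 of 19 alternatives (adjusted p up to 0.191). Daily courses in WT livers were called different between the diets, where 26.6% of all genes were, for Gys2 (adjusted p 0.000146), Ppp1r3b (adjusted p 0.00233), Phka2 (adjusted p 0.00261), Ppp1r3c (adjusted p 0.00343) and Ugp2 (adjusted p 0.0217). Without replicate 1 of every time point 2 members and 15.0% of all genes passed, and each diet has its own count table here.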

How the results depend on the processing

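Of 31 calls of a member in a comparison, 19 were kept under every alternative within their experiment and 12 were lost under at least 1, all with the same direction. Among the 31 is the fall of Ppp1r3g in GRLKO livers on control diet, where the filter kept the gene only for its ZT12 counts. The exceptions in direction came from the WT livers of the time series in place of the diet experiment. There the log2 differences of Phka2 and Ugp2 were 0.03 and 0.07, each diet had its own count table and the cause was not tested. With DESeq2, the members called were 2 for corticosterone, 14 between genotypes over the 6 times on caloric restriction (7 with edgeR), 2 on control diet and 2 in the interaction. DESeq2 called more of all genes as well, 1300 against 935 with edgeR for corticosterone, 5252 against 2966 between genotypes on caloric restriction, 2471 against 772 on control diet and 659 against 152 in the interaction, summed over the times. With total counts, 1 was called for corticosterone, and with no filter on low counts 0 in the interaction, beside 986 of all genes against 935 and 118 against 152. Without the libraries that held markers of other tissues, 4 were called between genotypes on caloric restriction and 0 in the interaction, with 1709 and 74 of all genes. With each library left out in turn, the counts ran from 3 to 5 for diet, 0 to 1 for corticosterone, 0 to 1 between genotypes on control diet and 0 to 2 in the interaction, and those of all genes from 4512 to 6471, 206 to 1008, 624 to 790 and 78 to 177. With each replicate number left out, members with a rhythm ran from 2 to 6 in WT and 1 to 2 in GRLKO on caloric restriction, 2 to 5 in GRLKO on control diet, and 2 to 5 for rhythm differences between diets, where fewer libraries were tested. No pairing of livers by replicate number was seen, although 3 or 4 livers per group cannot settle it. Residuals of like-numbered libraries correlated above 0.1 in 3 of 44 pairs (r -0.123 to 0.115), and in 0 of 14 comparisons in all of its pairs. With the replicate block, 0 members were called from ZT12 to ZT16 in GRLKO on control diet and 0 in the interaction, beside 16 of all genes against 1065 and 8 against 152. In all, 7 of the 31 calls were lost with this block. A block takes up degrees of freedom, but the cause of these losses and of the other changes was not tested. Ppp1r3g was at or near 0 counts in many libraries, beside single livers of the same group with up to 439 counts, and was untested by edgeR wherever the filter removed it, and whether depth limits it was not tested.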
